A study of Mus musculus with 24 samples.

Results

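The 8 genes described here encode the cell-surface receptors for the epidermal growth factor (EGF) family, Egfr, Erbb2, Erbb3 and Erbb4, and for the fibroblast growth factor (FGF) family, Fgfr1, Fgfr2, Fgfr3 and Fgfr4. They were taken by symbol from the deposited expression table, in which they are 8 of 22667 genes, and all 8 were among the 16627 genes that passed the filter on low counts. Their alternative splicing was read from the per-sample splicing table, which lists 44 of its 54141 exon events, 168 of its 160806 introns and 47 of its 80861 splice-site entries in these genes. RNA sequencing of poly(A)+ RNA had been carried out on mouse embryonic stem cells (ESCs) derived from the E14 line and on cells differentiated from them in culture, with the wild-type (WT) genotype or with both copies of Polr2a altered (slow/slow). Polr2a encodes the catalytic subunit of RNA polymerase II, and the slow/slow line carries an arginine-to-histidine change in it that lowers the speed of elongation. ESCs were kept in medium with LIF and 2 kinase inhibitors (2i), neural progenitor cells (NPCs) were collected at day 7 of monolayer differentiation, PSA-NCAM+ cells were purified at day 10 with beads against the polysialylated neural cell adhesion molecule, and neurons were replated at day 7 and grown for 14 further days with ascorbic acid and cAMP. Stage and genotype together made 8 groups, each with 3 replicate libraries, 24 in all. The slow/slow cells descend from 1 engineered line, so that genotype and line cannot be told apart at any stage. Differentiation was started at 10000 WT or 30000 slow/slow cells per cm2, so that after the ESC stage plating density cannot be told apart from them either. The p-values measure the spread between cultures of these lines.

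Receptors of both families span the membrane once and carry a tyrosine kinase inside the cell. Binding of a ligand pairs 2 receptor molecules, the kinases phosphorylate each other, and adaptors pass the signal to the Ras and MAP kinase pathway. Egfr binds EGF and related ligands, Erbb3 and Erbb4 bind neuregulins, Erbb3 has a very weak kinase, and Erbb2 has no ligand of its own and acts as the partner of the others. FGF receptors bind FGFs together with heparan sulphate. Fgf4 and Fgfr1 are known for moving mouse ESCs out of self-renewal, EGF and FGF2 are the usual growth factors of neural stem cell cultures, and Fgfr3 marks radial glia and astrocytes in the developing brain. Ligand choice in Fgfr1, Fgfr2 and Fgfr3 is set by 2 mutually exclusive exons, IIIb and IIIc, which encode the second part of the third immunoglobulin-like (Ig) loop. Epithelia commonly use IIIb and mesenchyme and neural tissue IIIc. Erbb4 transcripts use alternative juxtamembrane exons, of which JM-a, but not JM-b, lets a protease release the part of the receptor outside the cell.

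Alternative exons on which splicing results turn are shown 5′ to 3′ on the strand of the gene, with the exon in capitals and the adjoining 10 bases of the neighbouring exons in lower case. They come from mouse transcripts of the GENCODE M21 annotation (GRCm38), matched to the deposited events by the length of the exon and of both flanking introns. Positions are given as deposited in mm9 and, separately, as annotated in GRCm38. All 5 lie within coding sequence.
Fgfr3 IIIb exon, 151 bases: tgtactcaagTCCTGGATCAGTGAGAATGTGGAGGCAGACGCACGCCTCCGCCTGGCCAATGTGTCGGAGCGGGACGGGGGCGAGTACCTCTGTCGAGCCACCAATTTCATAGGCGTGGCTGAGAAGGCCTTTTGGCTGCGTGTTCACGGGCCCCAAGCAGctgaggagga
Fgfr3 IIIc exon, 145 bases: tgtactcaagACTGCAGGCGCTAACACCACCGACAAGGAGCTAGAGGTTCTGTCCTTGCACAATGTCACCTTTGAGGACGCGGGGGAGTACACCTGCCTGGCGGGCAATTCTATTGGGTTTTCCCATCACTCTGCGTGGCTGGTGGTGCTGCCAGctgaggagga
Fgfr2 acid box exon, 78 bases: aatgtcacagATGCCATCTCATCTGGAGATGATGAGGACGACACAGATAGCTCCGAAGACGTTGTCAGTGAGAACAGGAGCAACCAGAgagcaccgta
Erbb4 JM-a exon, 75 bases: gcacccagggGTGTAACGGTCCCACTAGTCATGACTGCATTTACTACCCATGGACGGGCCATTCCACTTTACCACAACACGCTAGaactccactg
Erbb4 JM-b exon, 45 bases: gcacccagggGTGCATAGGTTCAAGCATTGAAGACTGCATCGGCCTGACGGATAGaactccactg
Both Fgfr3 exons are spliced between the same neighbours, as their identical lower-case ends show. The Fgfr3 exons lie on the plus strand of chromosome 5, IIIb at chr5:34073930-34074080 and IIIc at chr5:34074766-34074910 (mm9), which in GRCm38 are chr5:33731281-33731431 and chr5:33732117-33732261. On the minus strand of chromosome 7, the acid box exon of Fgfr2, which encodes an acidic stretch between the first 2 Ig loops, lies at chr7:137384714-137384791 (mm9), or chr7:130241200-130241277 in GRCm38. The Erbb4 exons lie on the minus strand of chromosome 1, JM-a at chr1:68336817-68336891 and JM-b at chr1:68337013-68337057 (mm9), or chr1:68290243-68290317 and chr1:68290439-68290483 in GRCm38. The JM-a and JM-b exons of Erbb4 also join the same neighbours.

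The genes themselves range in length from 15.3 kb (Fgfr3) and 15.9 kb (Fgfr4) to 161.7 kb (Egfr) and 1076.7 kb (Erbb4), by their RefSeq positions in GRCm38. Fgfr3 shares 998 of its 7158 exonic bases (13.9%) with the transcript G630022F23Rik of the opposite strand. Fgfr1 shares 164 bases (1.7%) with Gm16159, and Erbb2 shares 9 bases with Mien1, in both cases also on the opposite strand. Whether counting used the strand is not given in the sources used here, so reads in these stretches cannot be assigned with certainty.

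Libraries held between 32974432 and 104466886 counted reads. Some features of the whole series touch the receptors and are given here once. Genes of chromosome 8, where Fgfr1 lies, were shifted upward in slow/slow cells at every stage, with a median log2 change of 0.45, 0.49, 0.46 and 0.44 in ESCs, NPCs, PSA-NCAM+ cells and neurons over 865 tested genes, of which 55 to 56.6% were called higher. Genes of chromosome 15 were shifted downward, with medians of -0.60, -0.57 and -0.56 in ESCs, NPCs and PSA-NCAM+ cells, but -0.08 in neurons. Of its 639 tested genes, 64.5%, 60.4%, 61.7% and 29.4% were called lower at these stages. No receptor gene lies on it. Medians of the remaining autosomes lay between -0.14 and 0.15 over all stages. The part of the chromosome 15 shift in comparisons between stages was not tested. The PSA-NCAM+ libraries numbered 1 stood apart in both genotypes. Their summed expression of 5 epithelial markers (Epcam, Cdh1, Krt8, Krt18 and Krt19) was 6788 CPM (counts scaled to library size with TMM factors, the CPM of edgeR) in WT and 4351 CPM in slow/slow, against 2723 and 3104 CPM in the other two WT libraries and 864 and 760 CPM in the other two slow/slow libraries. The sum of 5 mesenchymal markers was also highest in them (488 and 645 CPM, against 140 to 255 CPM). Markers of the labelled cell types were only in part stage-specific. The 7 neuronal markers summed to 3430 to 3740 CPM in WT neurons and 2739 to 2906 CPM in slow/slow neurons. In PSA-NCAM+ cells they summed to 69.6 to 95.9 CPM in WT and 207 to 520 CPM in slow/slow. NPCs held 89.5 to 97.1 CPM of them in WT and 242 to 280 CPM in slow/slow. In cells labelled PSA-NCAM+, the 3 markers of PSA-NCAM (Ncam1, St8sia2 and St8sia4) summed to 26.7 to 31.1 CPM in WT and 36.8 to 61.9 CPM in slow/slow. Their sum was lower in WT NPCs (12.96 to 14.35 CPM) and far higher in neurons (715 to 745 CPM in WT, 395 to 418 CPM in slow/slow). The 6 markers of neural progenitors, which include Sox2, a gene that ESCs also express, summed to 272 to 289 CPM in WT NPCs and 399.7 to 407 CPM in WT ESCs, and the 6 pluripotency markers still reached 1887 to 1961 CPM in WT NPCs. Slow/slow NPCs had a lower pluripotency sum (1114 to 1232 CPM) and a higher neural progenitor sum (340 to 370 CPM) than WT NPCs. In PSA-NCAM+ cells the neural progenitor sum was 195 to 255 CPM in WT and 455 to 599 CPM in slow/slow. The pluripotency sum there was 1295 to 1779 CPM in WT and 678 to 705 CPM in slow/slow. The part of these marker differences in the receptor results was not tested. In such bulk libraries, fewer cells of a type and less RNA per cell cannot be told apart.

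**Figure D1:**
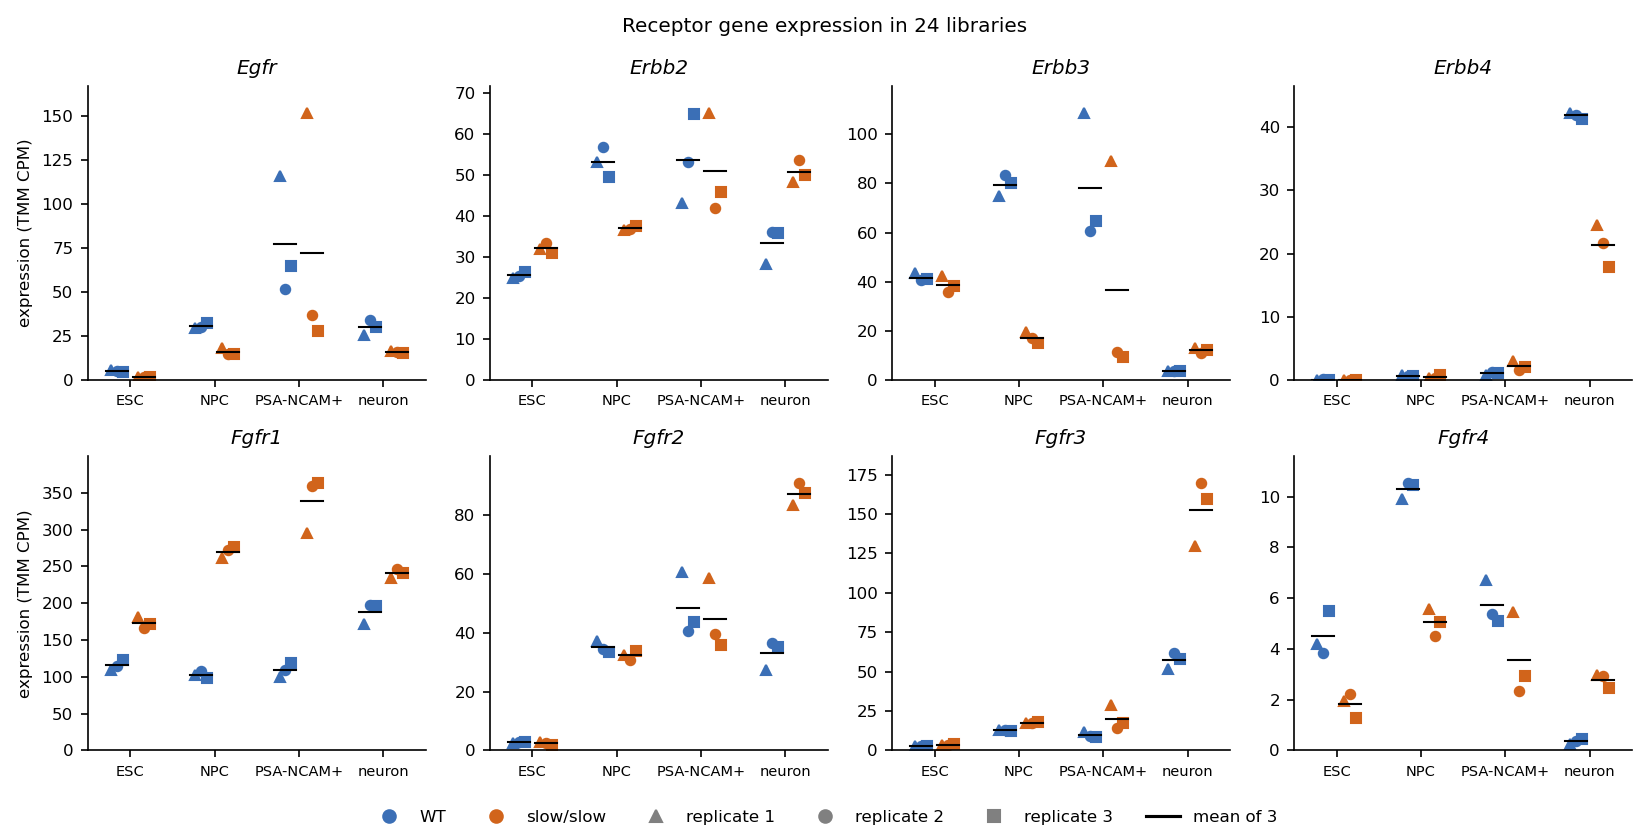
Expression (TMM-scaled CPM, linear axis from 0) of the 8 receptor genes in each of 24 libraries, by stage; blue is WT, orange slow/slow, the marker shape gives the replicate number and the black line the mean of 3. Fgfr1 was higher in slow/slow at every stage, Erbb4 appeared mainly in neurons, and in PSA-NCAM+ cells the triangles (replicate 1) of Egfr and Erbb3 lay far above the other points.

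Per length of transcript, Fgfr1 was the most abundant of the 8 receptors in every group. The authors' mean RPKM (reads per kilobase of transcript, scaled to library size, without a spread) of Fgfr1 was 24.5 in WT ESCs and 43.2 in WT neurons, and in WT ESCs the next were Erbb3 at 6.45 and Erbb2 at 4.74. In WT NPCs Erbb3 (13.9), Fgfr2 (11.2) and Erbb2 (11.1) followed Fgfr1 (24.6). In WT neurons Fgfr3 (14.0) and Fgfr2 (10.1) followed it, while Erbb3 was at 0.587 and Fgfr4 at 0.11. The receptor set thus differed in composition between stages as well as in amount. Erbb4 was at or below 0.18 RPKM in every group outside neurons.

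Differentiation of WT ESCs to NPCs raised 6 of the 8 genes and lowered none at an FDR (Benjamini-Hochberg adjusted p of edgeR's quasi-likelihood test) under 0.05, where 65.6% of all genes were called in either direction. The same step in slow/slow cells raised 6 and lowered none, with 62.3% of all genes called. From NPCs to PSA-NCAM+ cells, 3 receptors were called in WT (2 higher, 1 lower; 41.3% of all genes) and 5, all higher, in slow/slow (42.3%). From NPCs to neurons, 6 were called in WT (3 higher, 3 lower; 80.2%) and 5 in slow/slow (4 higher, 1 lower; 75%). These steps share their NPC libraries. Without both PSA-NCAM+ libraries numbered 1, the step into PSA-NCAM+ cells called 6 receptors in WT (54.1% of all genes) and 6 in slow/slow (52.4%).

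Between genotypes, the number of receptors called was 3 of 8 in ESCs (1 higher and 2 lower in slow/slow; 40.4% of all genes called), 5 in NPCs (2 higher, 3 lower; 56.7%), 4 in PSA-NCAM+ cells (3 higher, 1 lower; 56.7%) and 7 in neurons (6 higher, 1 lower; 51.9%). The median log2 change of the 8 genes was -0.51 at the NPC stage, -0.10 at the PSA-NCAM+ stage, and 1.0 in neurons, beside 0.007, -0.007 and -0.055 over all genes tested. In neurons the FGF receptors accounted for 4 of the 6 higher calls. Without both PSA-NCAM+ libraries numbered 1, whose spread enters the fit at every stage, the counts were 4, 6, 6 and 8 in the same order of stages, with 56.7%, 69.5%, 68% and 68.3% of all genes called.

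**Figure D2:**
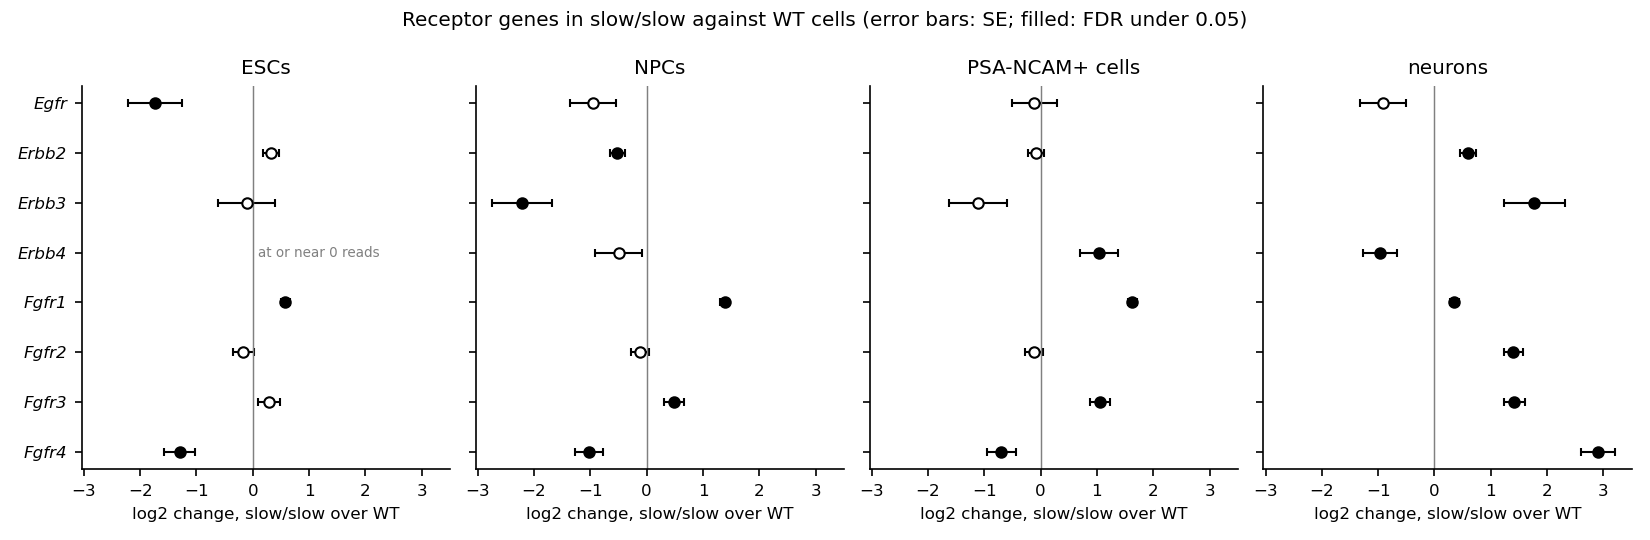
Log2 change of each receptor gene in slow/slow over WT cells at the 4 stages (points; bars are 1 SE; filled points have an FDR under 0.05), with no value for Erbb4 in ESCs, where its reads were at or near 0. All 4 FGF receptors lay to the right of 0 in neurons, and Fgfr4 lay to the left of 0 at the other 3 stages.

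Egfr, the receptor of EGF itself, was at its lowest in ESCs. WT ESCs gave 5.61, 5.22 and 4.62 CPM and slow/slow ESCs 1.38, 1.72 and 1.52 CPM, so that every slow/slow library lay below every WT library (log2 change -1.74 ± 0.48 SE, FDR = 0.00677). In NPCs the WT values were 29.4, 30.1 and 32.3 CPM and the slow/slow values 18.1, 14.6 and 14.8 CPM. Again the groups did not overlap, yet the change of -0.95 ± 0.41 missed the threshold (FDR = 0.0532) with all 24 libraries in the fit. It passed in a fit of the NPC libraries alone (-0.97, FDR = 1.03e-07). It also passed without both PSA-NCAM+ libraries numbered 1 (-0.95, FDR = 6.95e-08), a choice made after seeing the data. Neurons gave the same order, with 25.8, 33.9 and 30.3 CPM in WT and 16.2, 16.1 and 15.4 CPM in slow/slow. The change was -0.91 ± 0.41 (FDR = 0.0667, or 1.18e-07 without those libraries), and -0.84 (FDR = 1.09e-05) in a fit of the neuron libraries alone.

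In PSA-NCAM+ cells, Egfr was at 116, 51.8 and 64.5 CPM in WT and at 152, 37.2 and 27.6 CPM in slow/slow. The highest value of each genotype was in the library numbered 1, which also carried the most epithelial and the most mesenchymal marker RNA, and the groups overlapped (-0.11 ± 0.40, FDR = 0.837). With the replicate number as a block within this stage the change was -0.43 (FDR = 0.0364), and without both libraries numbered 1 it was -0.84 (FDR = 4.65e-06). The part of epithelial or mesenchymal cells in this result was not tested. From ESCs to NPCs, Egfr rose in both genotypes, by 2.57 ± 0.44 in WT (FDR = 3.32e-05) and 3.36 ± 0.48 in slow/slow (FDR = 4.68e-06). Levels in NPCs and neurons overlapped in each genotype.

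Erbb2, the partner receptor without a ligand, lay between 24.8 and 65.1 CPM in all libraries. WT ESCs gave 24.8, 25.3 and 26.4 CPM and slow/slow ESCs 31.8, 33.4 and 30.9 CPM, a separation that missed the threshold (0.33 ± 0.14, FDR = 0.0701). It passed in a fit of the ESC libraries alone (0.35, FDR = 0.000626) and without both PSA-NCAM+ libraries numbered 1 (FDR = 0.00191). In NPCs the order was turned, with 53.0, 56.7 and 49.4 CPM in WT above 36.6, 36.8 and 37.5 CPM in slow/slow (-0.52 ± 0.14, FDR = 0.00385). In neurons slow/slow was again the higher, at 48.2, 53.7 and 49.8 CPM against 28.3, 35.9 and 35.7 CPM (0.60 ± 0.14, FDR = 0.00132). The groups did not overlap at any of these 3 stages. PSA-NCAM+ cells held 43.1, 53.0 and 64.7 CPM in WT and 65.1, 42.0 and 45.7 CPM in slow/slow, with overlap (-0.08 ± 0.14, FDR = 0.666; -0.43, FDR = 0.000602, without both libraries numbered 1). Between NPCs and neurons Erbb2 fell in WT (-0.67 ± 0.14, FDR = 0.000208) and rose in slow/slow (0.45 ± 0.14, FDR = 0.00679).

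Erbb3, a neuregulin receptor, showed the widest swing between genotypes within the EGF receptor family. ESCs were not separated, with 43.4, 40.8 and 40.9 CPM in WT and 42.5, 35.6 and 38.1 CPM in slow/slow, which overlapped (-0.11 ± 0.51, FDR = 0.899). In NPCs the WT libraries stood at 74.8, 83.4 and 80.2 CPM and the slow/slow libraries at 19.3, 17.1 and 15.1 CPM. Erbb3 was thus lower in slow/slow NPCs, with a log2 change of -2.21 ± 0.53 (FDR = 0.00146). In neurons the direction was the opposite, from a low level: 3.45, 3.52 and 3.61 CPM in WT and 13.0, 11.1 and 12 CPM in slow/slow (1.77 ± 0.54, FDR = 0.00999). Summed epithelial markers moved the same way at both stages, at 1631 to 1742 CPM in WT and 866 to 1108 CPM in slow/slow NPCs, and 224 to 278 CPM in WT and 460 to 488 CPM in slow/slow neurons. So did summed mesenchymal markers, at 50.8 to 66.8 CPM in WT and 26.7 to 32.5 CPM in slow/slow NPCs. In neurons they were at 216 to 271 CPM in WT and 567 to 602.5 CPM in slow/slow. Their part in the result was not tested.

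Erbb3 in PSA-NCAM+ cells was at 109, 60.7 and 64.5 CPM in WT and at 89.1, 11.3 and 9.25 CPM in slow/slow. The slow/slow library numbered 1 lay above 2 of the WT libraries, and the other two lay far below all of them (-1.11 ± 0.51, FDR = 0.0702). With the replicate number as a block within the stage the change was -1.84 (FDR = 7.22e-06), and without both libraries numbered 1 it was -2.61 (FDR = 5.42e-16). From NPCs to neurons, Erbb3 changed in WT by -4.49 ± 0.59 (FDR = 6.23e-07), the second largest fall among the 8 genes at that step, while slow/slow gave -0.52 ± 0.52 (FDR = 0.372).

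**Figure D3:**
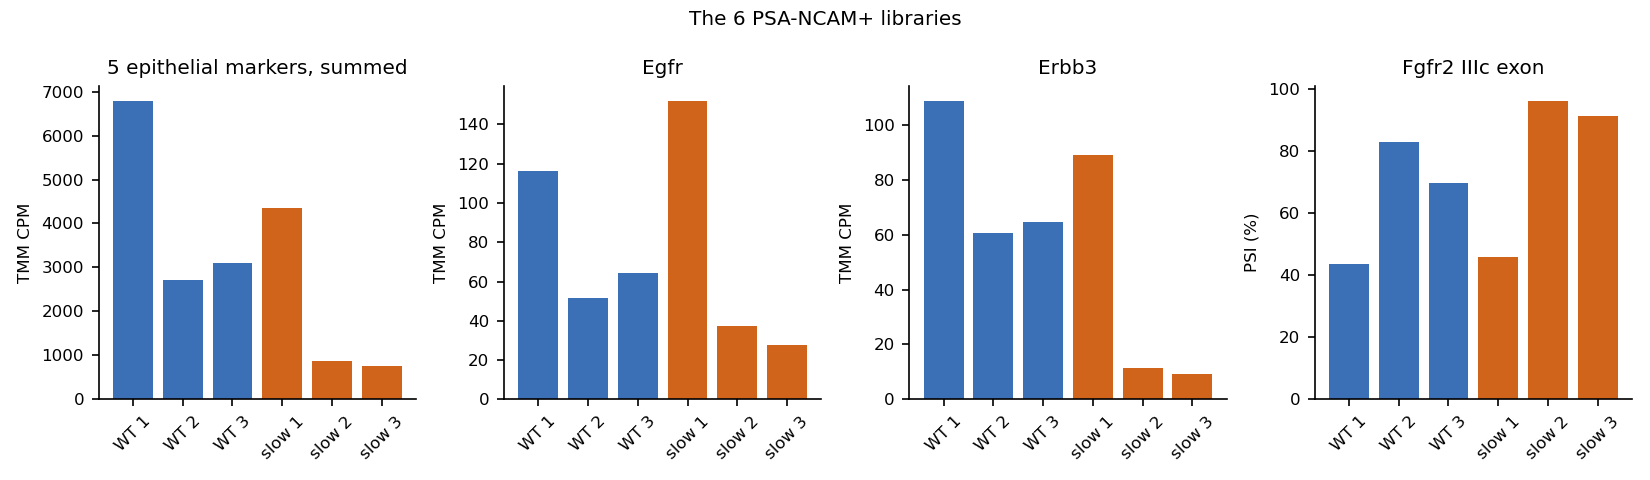
The 6 PSA-NCAM+ libraries (WT blue, slow/slow orange, numbered by replicate): summed CPM of 5 epithelial markers, CPM of Egfr and of Erbb3, and percent inclusion (PSI) of the Fgfr2 IIIc exon, all from 0. In both genotypes replicate 1 had the highest epithelial sum (6788 and 4351 CPM), the highest Egfr and Erbb3 and the lowest IIIc inclusion (43.6 and 46.0%). The mesenchymal sum, not drawn, was also highest in replicate 1 (488 and 645 CPM).

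Erbb4, the other neuregulin receptor and the longest of the genes, was nearly confined to neurons in level. ESC libraries held 0, 4 and 0 reads in WT and 0, 0 and 0 in slow/slow, so no fold between genotypes is given. In NPCs, WT libraries held 0.728, 0.543 and 0.645 CPM and slow/slow libraries 0.336, 0.286 and 0.764 CPM, with overlap (-0.50 ± 0.41, FDR = 0.306). The step from ESCs to NPCs was called in both genotypes (FDR = 1.17e-05 in WT and 2.44e-05 in slow/slow), and in slow/slow cells the NPC mean was at least 6.24-fold higher than a floor of 3 reads per ESC library. In neurons Erbb4 reached 42.3, 42.0 and 41.3 CPM in WT and 24.4, 21.6 and 17.9 CPM in slow/slow, a log2 change of -0.97 ± 0.30 (FDR = 0.0121), which missed the threshold without the slow/slow library numbered 3 (-0.87, FDR = 0.0591). It was the only member of the 8 called lower in slow/slow neurons with all libraries in the fit; without both PSA-NCAM+ libraries numbered 1, Egfr was called lower too. The 7 neuronal markers were also lower there (2739 to 2906 CPM against 3430 to 3740 CPM), and their part in the result was not tested. In PSA-NCAM+ cells Erbb4 was at 0.775, 1.25 and 1.17 CPM in WT and 2.98, 1.60 and 2.00 CPM in slow/slow, higher by 1.04 ± 0.34 (FDR = 0.014). Without both libraries numbered 1 the change was 0.58 (FDR = 0.0501), and without the WT one alone 0.84 (FDR = 0.0569). From NPCs to neurons, Erbb4 rose by 6.04 ± 0.39 in WT (FDR = 5.29e-11) and 5.57 ± 0.40 in slow/slow (FDR = 3.67e-10), the largest rise among the 8 genes in each genotype.

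Fgfr1, the main FGF receptor of ESCs and neural progenitors, was higher in every slow/slow library than in every WT library of the same stage. ESCs held 110, 115 and 123 CPM in WT and 181, 167 and 172 CPM in slow/slow (0.58 ± 0.08, FDR = 1.15e-05). In NPCs the values were 102, 107 and 98.9 CPM against 261, 272 and 277 CPM (1.39 ± 0.08, FDR = 1.12e-10). The gap was widest in PSA-NCAM+ cells, where WT libraries gave 100, 110 and 119 CPM and slow/slow libraries 295, 359 and 363 CPM (1.63 ± 0.08, FDR = 1.81e-11). It narrowed in neurons, which gave 171, 198 and 197 CPM in WT and 234, 246 and 242 CPM in slow/slow (0.35 ± 0.08, FDR = 0.0012).

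Set against the shift of its chromosome, Fgfr1 was unremarkable in ESCs and neurons and high in between. Its log2 change was 0.13 above the median of chromosome 8 genes in ESCs and -0.08 from it in neurons, and 37% and 57.2% of the chromosome's genes changed more. In NPCs it was 0.91 and in PSA-NCAM+ cells 1.17 above the median, with 8.79% and 5.55% of the genes higher. The part of the chromosome-wide shift in the change of Fgfr1 was not tested. The course over differentiation also differed in order. In WT, Fgfr1 was called at neither of the first steps (-0.17 ± 0.08 from ESCs to NPCs, FDR = 0.0675) and rose into neurons (0.88 ± 0.08, FDR = 4.23e-09). In slow/slow it rose from ESCs to NPCs (0.64 ± 0.08, FDR = 1.03e-06) and on to PSA-NCAM+ cells (0.33 ± 0.08, FDR = 0.00315), with -0.16 ± 0.08 from NPCs to neurons (FDR = 0.0741).

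Fgfr2, whose IIIb form serves epithelia and whose IIIc form serves mesenchymal and neural cells, did not separate the genotypes before the neuron stage. ESC libraries lay between 2.58 and 2.90 CPM in WT and between 1.95 and 2.89 CPM in slow/slow (-0.17 ± 0.19, FDR = 0.518). NPCs were at 37.3, 34.4 and 33.6 CPM in WT and 32.5, 30.6 and 33.7 CPM in slow/slow, and the groups overlapped (-0.12 ± 0.16, FDR = 0.556). PSA-NCAM+ cells were at 60.5, 40.6 and 43.6 CPM in WT and 58.5, 39.5 and 36.0 CPM in slow/slow (-0.11 ± 0.16, FDR = 0.572), highest in the library numbered 1 of each genotype. Neurons held 27.4, 36.6 and 35.0 CPM in WT and 83.3, 90.8 and 87.5 CPM in slow/slow. There the slow/slow level was far outside the WT range (1.40 ± 0.17, FDR = 8.12e-07). The 5 mesenchymal markers (216 to 271 CPM in WT and 567 to 602 CPM in slow/slow neurons) and the 5 epithelial markers (224 to 278 and 460 to 488 CPM) were also higher there, and their part in the result was not tested. The gene rose strongly from ESCs to NPCs in both genotypes (3.65 ± 0.19 in WT, FDR = 2.29e-12, and 3.71 ± 0.19 in slow/slow, FDR = 1.62e-12), and from NPCs to neurons in slow/slow (1.43 ± 0.17, FDR = 1.57e-07), with -0.09 ± 0.16 in WT (FDR = 0.632).

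Fgfr3, the radial glial and astrocytic receptor, was lowest in ESCs and highest in neurons in both genotypes. ESCs gave 3.05, 2.87 and 2.98 CPM in WT and 3.53, 3.25 and 4.21 CPM in slow/slow (0.29 ± 0.20, FDR = 0.263). NPCs gave 12.9, 12.9 and 12.2 CPM in WT and 17.7, 17.2 and 17.8 CPM in slow/slow, without overlap (0.48 ± 0.18, FDR = 0.0293). This call did not hold in 5 of the 6 fits that left out 1 NPC library. In PSA-NCAM+ cells WT was at 11.7, 8.95 and 8.37 CPM and slow/slow at 28.7, 14.4 and 17.5 CPM (1.05 ± 0.18, FDR = 5.65e-05). All 3 of these WT values lay below the WT NPC values (-0.38 ± 0.18, FDR = 0.0975; -0.55, FDR = 0.000247, without both libraries numbered 1), while slow/slow gave 0.19 ± 0.18 for that step (FDR = 0.394). Neurons reached 51.5, 61.9 and 58.3 CPM in WT and 130, 170 and 159 CPM in slow/slow (1.42 ± 0.18, FDR = 1.65e-06). All slow/slow libraries lay above all WT libraries at each stage. Among marker lists in neurons, the 5 astrocyte markers had the opposite order, with a sum of 166 to 204 CPM in WT and 84.5 to 96.2 CPM in slow/slow. The 6 neural progenitor markers had the same order as Fgfr3 (988 to 1178 CPM in WT and 1242 to 1427 CPM in slow/slow), as did the mesenchymal and epithelial sums given for Fgfr2. Their part in the result was not tested. From NPCs to neurons Fgfr3 rose by 2.18 ± 0.18 in WT (FDR = 8.30e-10) and 3.12 ± 0.19 in slow/slow (FDR = 9.45e-12).

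Fgfr4, an FGF receptor best known from endoderm-derived organs and muscle, was per length the least abundant FGF receptor in neurons (authors' mean RPKM 0.11 in WT and 0.93 in slow/slow). ESCs held 4.21, 3.84 and 5.48 CPM in WT and 1.94, 2.23 and 1.27 CPM in slow/slow (-1.30 ± 0.27, FDR = 0.00061). NPCs held 9.90, 10.5 and 10.5 CPM in WT and 5.56, 4.51 and 5.08 CPM in slow/slow (-1.03 ± 0.25, FDR = 0.00199). Both stages thus had less Fgfr4 in slow/slow, without overlap. In PSA-NCAM+ cells the values were 6.70, 5.37 and 5.12 CPM against 5.45, 2.33 and 2.92 CPM, overlapping through the slow/slow library numbered 1 (-0.70 ± 0.26, FDR = 0.0254; -1.0, FDR = 3.67e-05, without both libraries numbered 1). The call was lost without the WT library numbered 1 (-0.57, FDR = 0.0929) or the slow/slow library numbered 2 (-0.43, FDR = 0.174) or 3 (-0.54, FDR = 0.122), and in a fit of this stage alone (FDR = 0.211). In neurons WT libraries fell to 0.245, 0.385 and 0.462 CPM while slow/slow libraries held 2.96, 2.91 and 2.47 CPM. Fgfr4 was therefore higher in slow/slow neurons by 2.91 ± 0.30 (FDR = 1.14e-07), the largest genotype difference among the 8 receptors. From NPCs to neurons it fell by 4.79 ± 0.31 in WT (FDR = 1.07e-11) and fell by 0.86 ± 0.26 in slow/slow (FDR = 0.00548).

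Whether the genotype difference itself changed between stages was tested as an interaction against ESCs, whose libraries all 3 such comparisons share. In NPCs 3 receptors passed (24.6% of all genes), in PSA-NCAM+ cells 2 (27.1%, or 5 receptors and 44.8% of all genes without both libraries numbered 1) and in neurons 4 (42.1%). Fgfr1 passed in NPCs and PSA-NCAM+ cells, and Fgfr2, Fgfr3 and Fgfr4 passed in neurons. Erbb3 passed in NPCs and neurons with opposite signs, and neither call held when any 1 of the 12 libraries concerned was left out, although the values stayed between -2.20 and -2.02 in NPCs and between 1.82 and 1.95 in neurons. Without both PSA-NCAM+ libraries numbered 1 in the fit, the Erbb3 interactions were -2.10 (FDR = 1.36e-12) and 1.87 (FDR = 1.23e-11).

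At the level of splicing, few of the receptors' exons that met the deposited quality scores varied. Percent spliced in (PSI) is the share of transcripts with the exon, in percent, estimated from junction reads. A change was called when the mean PSI differed by more than 10 points and the posterior probability of its sign exceeded 0.95. Of the member exons that met the quality scores in all 6 libraries of a stage, 6 of 7 (ESCs), 13 of 16 (NPCs), 14 of 18 (PSA-NCAM+ cells) and 16 of 19 (neurons) were above 90% in every library. No exon of Erbb4 or Fgfr4 met them at any stage. Some exons failed the scores with many reads. In WT NPCs these included the 117-base exon of Fgfr2 (0%, at least 69 reads) and its 318-base exon (mean 98.3%, at least 150 reads). Between genotypes, the count called was 0 of 7 for ESCs (0.809% of all exons), 0 of 16 for NPCs (2.93%), 1 of 18 for PSA-NCAM+ cells (0.966%) and 0 of 19 for neurons (3.55%). By posterior probability alone, 0, 0, 1 and 2 member exons passed at the 4 stages. On the logit of the reads, limma called 0 member exons at each stage. Once replicate numbers were blocked, it called 1 in PSA-NCAM+ cells and 0 at the others. Over all exons tested, limma called 75, 553, 2 and 799 at the 4 stages, or 80, 678, 124 and 898 with the block. Its 0 in PSA-NCAM+ cells without the block, where 2 of 24333 exons were called, therefore says little about the member exons. The 2 exons that passed in neurons by probability alone were the IIIc exons of Fgfr2 (-5.0 points, posterior probability 0.971) and Fgfr3 (-2.68 points, posterior probability 0.992), both with a smaller share in slow/slow.

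No member intron or splice site was called between genotypes. For introns, 53, 62, 92 and 69 were tested in ESCs, NPCs, PSA-NCAM+ cells and neurons, with 0.0541%, 0.322%, 0.0838% and 0.26% of all introns called. For alternative splice sites, 10, 16, 18 and 24 were tested, with 0.0992%, 0.746%, 0.164% and 0.398% of all called. By posterior probability alone, 0, 1, 0 and 3 introns and 0, 2, 0 and 0 splice sites passed. The largest intron difference in any member was 7.56 points and the largest splice-site difference 9.31 points.

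Along differentiation, member exons were called in neurons against NPCs, 1 of 19 in WT (6.48% of all exons called) and 1 of 15 in slow/slow (3.73%). The count was 0 in the other steps, namely 0 of 8 for ESCs to NPCs in WT (2.42%), 0 of 21 for NPCs to PSA-NCAM+ cells in WT (1.36%), 0 of 5 (0.763%) and 0 of 16 (0.794%) for the same steps in slow/slow. Of these 4 steps, the 2 into PSA-NCAM+ cells each had 1 member exon past the posterior probability alone, and the 2 from ESCs had 0.

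The IIIc exon of Fgfr2 was the exon called in WT neurons. Its inclusion was 86.0, 80.6 and 84.1% in WT NPCs and 98.7, 99.0 and 97.4% in WT neurons, a rise of 14.8 points (posterior probability 1). Slow/slow NPCs had 83.7, 87.7 and 85.8% and slow/slow neurons 90.9, 92.7 and 96.6%, a difference of 7.63 points, under the 10-point threshold. Every neuron library of both genotypes lay above every NPC library. In PSA-NCAM+ cells the exon was at 43.6, 82.8 and 69.7% in WT and at 46.0, 96.2 and 91.3% in slow/slow. The lowest value of each genotype was in the library numbered 1, from 329 and 195 reads, the same libraries that held the most epithelial and the most mesenchymal marker RNA. With all 6 libraries the genotypes differed by 12.5 points (posterior probability 0.713, not called), and without both libraries numbered 1 by 17.5 points, which was called. The IIIb exon of Fgfr2 was not among the exon events used here. The 151-base exon of Fgfr1, equal in length to the IIIb exon of Fgfr3, was at most 3.90% in 22 libraries, all of them below the quality score, and at 8.37 and 10.4% in the WT and slow/slow PSA-NCAM+ libraries numbered 1.

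The acid box exon of Fgfr2 was the exon called between genotypes. Its inclusion in PSA-NCAM+ cells was 75.4, 67.0 and 71.8% in WT and 85.4, 81.6 and 83.0% in slow/slow, without overlap (11.9 points higher, posterior probability 0.986). NPCs pointed the same way with 80.0, 72.4 and 63.2% in WT and 83.2, 85.9 and 79.2% in slow/slow, where 1 slow/slow library lay below the highest WT library (10.9 points, posterior probability 0.88, not called). Neurons came closer together, at 64.7, 67.1 and 63.8% in WT and 67.2, 71.3 and 69.1% in slow/slow (4.02 points). From NPCs to neurons the exon fell by 13.5 points in slow/slow (posterior probability 0.984) and differed by -6.66 points in WT (posterior probability 0.775). The call in PSA-NCAM+ cells was lost when the WT library numbered 2 was left out (9.75 points). It was also lost in limma on the logit without the replicate block, which called only 2 of all 24333 exons there. With replicate numbers blocked, limma kept it and called 124 of all exons. The 267-base exon that encodes the first Ig loop of Fgfr2 was intermediate in all these groups, between 34.0 and 60.4%, with no call. In Fgfr1 the 267-base exon was included at 97.1% or more in every library.

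Fgfr3 had the mutually exclusive pair printed above, and at the NPC stage neither exon met the deposited quality scores in all 6 libraries. IIIc missed them only in the slow/slow library numbered 3, while IIIb missed them in every NPC library. As the exons exclude each other, their shares are not independent results. Its IIIc exon was at 95.0, 96.7 and 94.3% in WT NPCs and at 75.0, 79.0 and 80.0% in slow/slow NPCs, from 27 to 77 reads per library. Its IIIb exon was at 5.0, 5.26 and 12.8% in WT and at 27.7, 20.9 and 28.0% in slow/slow NPCs, from 16 to 53 reads. At this stage the slow/slow libraries thus held less IIIc and more IIIb than every WT library. With at least 10 reads per library in place of the quality scores, a setting chosen after seeing the data, the IIIc difference of -17.3 points was called (posterior probability 0.985) and the IIIb difference of 17.9 points was not (posterior probability 0.927). In PSA-NCAM+ cells the genotypes overlapped, with IIIc at 80.8, 100 and 80.8% in WT and at 72.2, 78.3 and 83.8% in slow/slow. IIIb was there at 18.2, 0 and 10.2% in WT and at 19.5, 22.9 and 17.8% in slow/slow. Neither difference was called under that setting (-9.11 and 10.6 points, posterior probability 0.767 and 0.806). In neurons IIIc was at 100, 99.4 and 98.9% in WT and at 96.8, 96.7 and 96.8% in slow/slow, and IIIb was at most 3.70% in any library. Under the same setting, from NPCs to neurons in slow/slow, IIIc rose by 18.8 points and IIIb fell by 24.1 points. The acid box exon of Fgfr3, 54 bases long, was at 82.9, 77.1 and 82.4% in WT neurons and at 82.5, 82.3 and 84.2% in slow/slow neurons (2.25 points, not called).

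**Figure D4:**
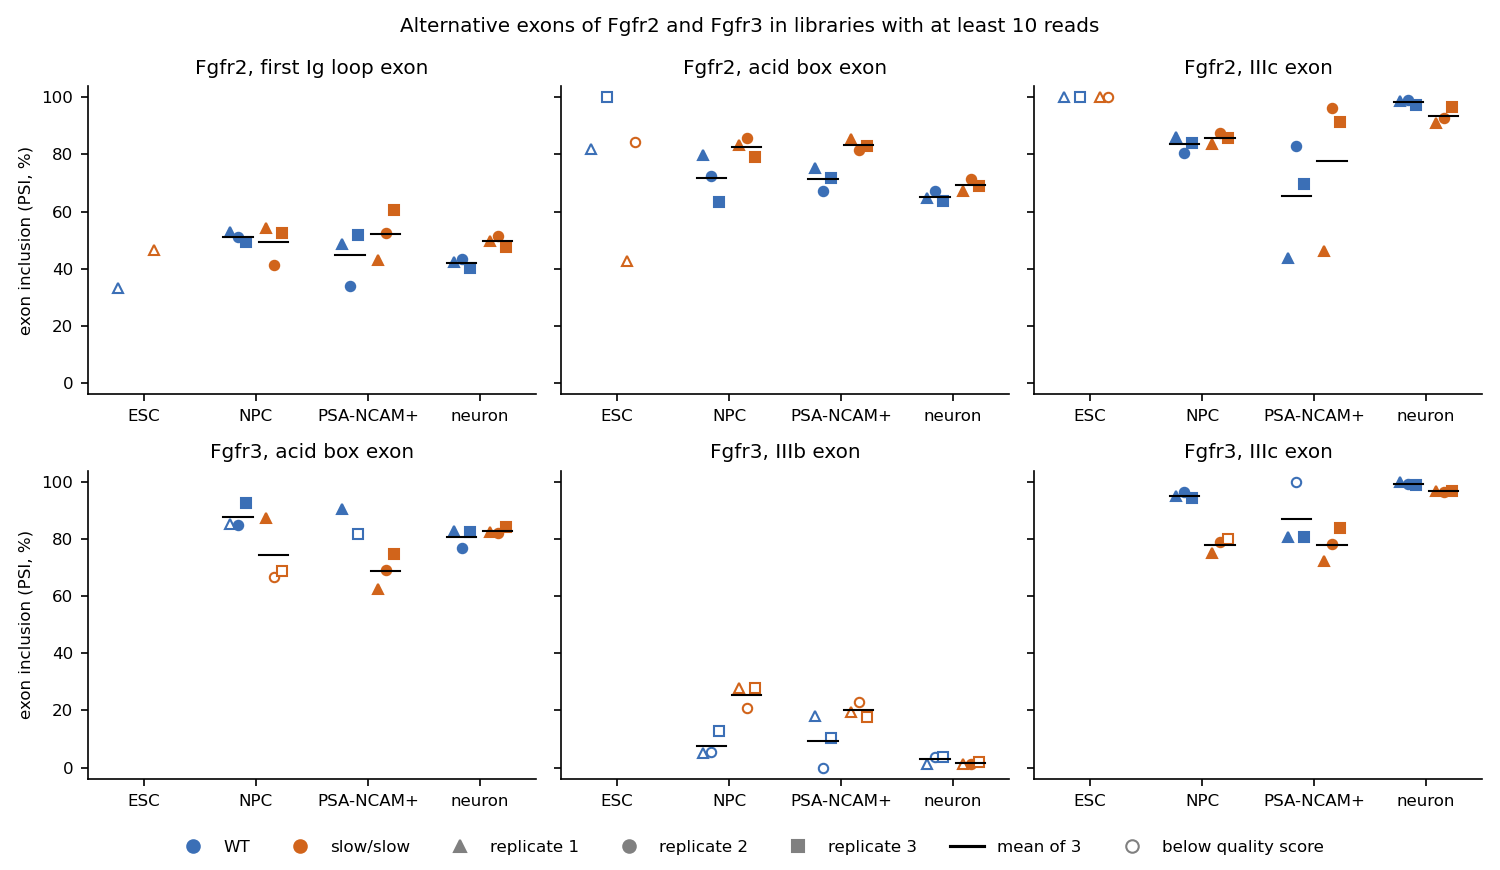
Inclusion (PSI, in percent) of 6 alternative exons of Fgfr2 and Fgfr3 in each library with at least 10 reads, by stage and genotype; open symbols are values below the authors' quality scores and black lines are means of 3. In NPCs the slow/slow libraries had less Fgfr3 IIIc (75.0 to 80.0%) than WT (94.3 to 96.7%) and more IIIb, and the Fgfr2 IIIc exon was low in both PSA-NCAM+ replicates numbered 1.

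Erbb4 had measurable splicing only in neurons and at low coverage. The JM-a exon was at 35.0, 45.1 and 48.5% in WT neurons (27 to 49 reads) and at 40.0, 46.1 and 33.3% in slow/slow neurons (2 to 19 reads). The JM-b exon was at 53.2, 58.3 and 55.6% in WT (36 to 56 reads) and at 70.0, 61.5 and 100% in slow/slow (6 to 21 reads). Both forms were present in WT neurons. JM-a values overlapped between genotypes, while every slow/slow JM-b value lay above every WT value. No test was made at this depth.

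Over all 24 libraries, the genes whose log2(CPM + 1) followed each receptor most closely, among 12909 genes with a mean of at least 5 CPM in some group, were Npnt for Egfr (Pearson r = 0.982), Gbp7 for Erbb2 (0.918), Cldn4 for Erbb3 (0.988) and Ctnna2 for Erbb4 (0.995). For the FGF receptors they were Plch1 for Fgfr1 (0.936), Igfbp4 for Fgfr2 (0.987), Cdc42se2 for Fgfr3 (0.989) and Fbxo27 for Fgfr4 (0.960). The points share stage, genotype and library, so these values describe the shape of the pattern only. Among the receptors themselves, Erbb4 and Fgfr3 were the most alike (0.88), and Fgfr1 was least like any other, with 0.48 to Fgfr3 as its closest.

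The pathway around the receptors was followed in 5 lists, 92 genes in all. Among the FGF ligands, 18 of 22 were tested, and in NPCs 9 were higher and 3 lower in slow/slow, with a median log2 change of 0.71. In neurons 1 was higher and 9 lower, with a median of -0.83. As with the lists that follow, these counts stand beside 40.4%, 56.7%, 56.7% and 51.9% of all genes called in ESCs, NPCs, PSA-NCAM+ cells and neurons, and no list was tested against other genes. Fgf15, an embryonic brain FGF, rose from 1.33 ± 0.15 to 60.4 ± 8.85 CPM (SD, n = 3) in NPCs (5.49 ± 0.39 SE, FDR = 1.13e-09), and Fgf1 rose by 2.98 ± 0.26 (FDR = 2.03e-08). Fgf4, the autocrine FGF of ESCs, fell from 124 ± 3.89 to 52.3 ± 0.393 CPM in NPCs (-1.24 ± 0.11, FDR = 1.30e-08). In neurons Fgf17 (-3.22 ± 0.21, FDR = 2.89e-10) and Fgf8 (-1.94 ± 0.27, FDR = 7.17e-06) fell, both ligands of the midbrain and forebrain patterning centres, while Fgf15 rose by 1.69 ± 0.32 (FDR = 0.000175).

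Of the EGF family ligands, 10 of 11 were tested, and 0 were higher and 1 lower in ESCs, 1 and 2 at the NPC stage, 1 and 4 at the PSA-NCAM+ stage, and 1 and 5 in neurons. Nrg1, the neuregulin that binds Erbb3 and Erbb4, was the gene called higher at the last 3 stages, from 9.11 ± 0.852 to 24 ± 2.94 CPM in NPCs (1.40 ± 0.21, FDR = 1.66e-05). Nrg1 also lies on chromosome 8, and the part of that chromosome's shift was not tested. Tgfa, a ligand of Egfr, was lower in slow/slow NPCs (8.34 ± 0.305 against 2.58 ± 0.559 CPM; -1.69 ± 0.41, FDR = 0.00175). In neurons Nrg3 (-1.80 ± 0.31, FDR = 7.43e-05) and Nrg2 (-1.49 ± 0.28, FDR = 0.000138) fell.

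Co-receptors and modulators were called 5 higher and 7 lower in ESCs, 7 and 4 at the NPC stage, 8 and 4 at the PSA-NCAM+ stage, and 3 and 8 in neurons, of 19 tested. Cdh2, N-cadherin, which binds FGF receptors, rose in slow/slow NPCs by 3.02 ± 0.37 (FDR = 1.37e-06), and Sdc4, a heparan sulphate proteoglycan, fell by 2.24 ± 0.26 (FDR = 8.26e-07). Gpc4, another proteoglycan, was lower in slow/slow neurons, by -2.30 ± 0.19 (FDR = 6.87e-09). Of the adaptors and the Ras and MAP kinase relay, 6 were higher and 1 lower in ESCs, 7 and 5 at the NPC stage, 9 and 2 at the PSA-NCAM+ stage, and 3 and 7 in neurons, of 19 tested. Their medians lay between -0.22 and 0.21. Shc1, an adaptor of both receptor families, was lower in slow/slow ESCs, NPCs and PSA-NCAM+ cells (-0.80, -0.75 and -0.72; FDR = 8.55e-07, 1.25e-06 and 1.88e-06).

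Feedback inhibitors and transcriptional targets of the pathway, 20 tested, were called 4 higher and 5 lower in ESCs, 11 and 3 at the NPC stage, 11 and 2 at the PSA-NCAM+ stage, and 4 and 10 in neurons. Their median log2 change was 0.61 in NPCs and -0.54 in neurons. In NPCs Ccnd1, cyclin D1, rose by 2.35 ± 0.31 (FDR = 3.54e-06) and Il17rd, a membrane inhibitor of FGF signalling, by 1.87 ± 0.34 (FDR = 0.000122). In neurons the immediate early gene Egr1 rose by 2.21 ± 0.23 (FDR = 1.71e-07), and the inhibitors Spred3 (-1.92 ± 0.22, FDR = 4.21e-07) and Spry4 (-1.70 ± 0.16, FDR = 3.19e-08) fell.

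**Figure D5:**
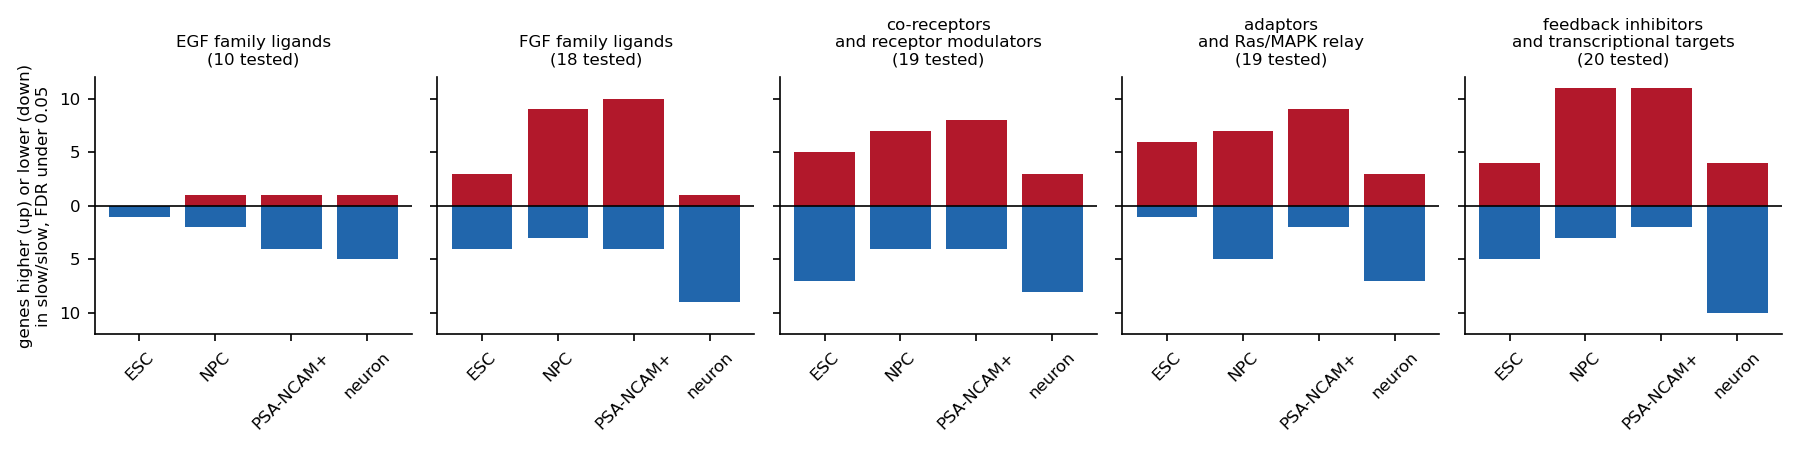
Number of genes of 5 pathway lists called higher (red, upward) or lower (blue, downward) in slow/slow than in WT cells at each stage, at an FDR under 0.05; the number tested stands above each panel. FGF ligands and feedback genes had more higher than lower calls in NPCs and PSA-NCAM+ cells (9 and 3, 11 and 3 in NPCs) and more lower calls in neurons (1 and 9, 4 and 10).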

How the data were processed

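Gene counts deposited by the authors are raw reads in each sample, made with vast-tools after mapping of paired-end reads to mm9, with no normalisation. They also deposited RPKM as group means, and a table of percent spliced in (PSI, percent) with quality scores and corrected inclusion and exclusion reads for each sample. Submitters' processing notes name bcl2fastq 2.17.1.14 and edgeR. Columns of log2 fold changes and FDR, and the pooled splicing table, hold the authors' own comparisons and were not used. Whether counting used the strand is not given in the sources used here.

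Counts of the 24 libraries were fitted in 1 model of 8 groups in edgeR 4.0.16 (R 4.3.3; filterByExpr, TMM scaling, glmQLFit and glmQLFTest; 16627 of 21553 genes with counts tested; common biological coefficient of variation 0.164, 16 residual degrees of freedom), with Benjamini-Hochberg adjustment over all genes tested. PSI differences were tested with beta posteriors of the corrected reads after the scheme of vast-tools, on events that met the deposited quality scores in all 6 libraries, introns with at least 15 reads. The members, gene lists and markers were chosen with earlier results of these data known. Named genes were all 8 members, the highest and lowest 2 called genes per list, the genes of highest correlation, and exons called or of intermediate PSI; the Fgfr3 IIIb and IIIc, Fgfr1 and Erbb4 exons fall outside that rule and were chosen after their values were seen. No pair of libraries held identical values.

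Replicate numbers came from the labels. Deviations from group means correlated between same-numbered WT and slow/slow libraries in PSA-NCAM+ cells (r = 0.54, 0.45 and 0.40). The deviations of each gene sum to 0 within a group, so these correlations are not independent of each other. The main fit held no replicate block. A block within the PSA-NCAM+ stage was added as an alternative after seeing the data. Alternatives were DESeq2 1.42.0, other scaling, no filter, a 2-fold minimum, a replicate block, fits of single stages, leaving out each library and, for exons, limma 3.58.1, stricter thresholds and other coverage filters. The fit was tested on simulated data for the NPC comparison of genotypes (16531 genes), where 93% of genes changed by 1 on the log2 scale and 98% of those changed by 2 were recovered. The mutation itself was not checked, since the counts hold no bases. Positions and exon sequences came from GRCm38 (RefSeq and GENCODE M21). The sequence of 1 exon is not reported here.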

Additional observations from a re-analysis of the deposited data

Results flagged for a closer look

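For 6 receptors the difference between slow/slow and WT cells was itself different from that in ESCs, by the interaction term of the edgeR fit (log2 difference of differences ± SE, adjusted p). All of these comparisons share the 6 ESC libraries. Over all genes, 24.6%, 27.1% and 42.1% passed this test in NPCs, PSA-NCAM+ cells and neurons. Relative to ESCs, the genotype difference in NPCs moved downward for Erbb2 (-0.85 ± 0.20, adjusted p = 0.00399) and Erbb3 (-2.10 ± 0.72, adjusted p = 0.0391) and upward for Fgfr1 (0.81 ± 0.12, adjusted p = 4.02e-05). In PSA-NCAM+ cells it moved upward for Fgfr1 (1.05 ± 0.12, adjusted p = 1.28e-06) and Fgfr3 (0.76 ± 0.27, adjusted p = 0.0419). In neurons it moved upward for Erbb3 (1.87 ± 0.74, adjusted p = 0.0474), Fgfr2 (1.57 ± 0.25, adjusted p = 5.43e-05), Fgfr3 (1.12 ± 0.27, adjusted p = 0.00209) and Fgfr4 (4.21 ± 0.40, adjusted p = 8.19e-08). For Fgfr4 all 3 slow/slow libraries lay below WT in ESCs and all 3 above it in neurons.

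Those with the highest adjusted p were Erbb3 in NPCs and in neurons, each lost in 12 of 12 fits that left out 1 library, and Fgfr3 in PSA-NCAM+ cells, lost in 8 of 12. Their values over those fits ran from -2.20 to -2.02, from 1.82 to 1.95 and from 0.44 to 0.97. Without both PSA-NCAM+ libraries numbered 1, they were -2.10 (adjusted p = 1.36e-12), 1.87 (adjusted p = 1.23e-11) and 0.60 (adjusted p = 0.00773). Fgfr1 lies on chromosome 8, whose genes had a median change of 0.45 in ESCs, 0.49 in NPCs and 0.46 in PSA-NCAM+ cells. The part of that chromosome-wide shift in the interaction of Fgfr1 was not tested.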

How the results depend on the processing

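Over the alternatives, 315 counts of changed members or exons stayed within 1.5 times the value given and 29 did not, and 1212 values of single genes kept their direction and side of the threshold, 56 passed it, 58 lost it and 2 turned. A 2-fold minimum left 3 receptors called in NPCs and 4 in neurons. An edgeR fit of the PSA-NCAM+ libraries alone left 2 at that stage, losing Erbb4 (adjusted p = 0.0837) and Fgfr4 (0.211). Such single-stage fits added Egfr in NPCs (adjusted p = 1.03e-07) and neurons (1.09e-05) and Erbb2 in ESCs (0.000626). The interaction in PSA-NCAM+ cells held 1 receptor with DESeq2 size factors or upper-quartile scaling and 4 with the DESeq2 Wald test. It held 5 without both PSA-NCAM+ libraries numbered 1 (44.8% of all genes), a choice made after seeing the data. That choice also gave 6 for WT NPCs to PSA-NCAM+ cells (54.1%). For the other settings named here the share of all genes called is not given, so their counts cannot be set against it. From NPCs to PSA-NCAM+ cells in slow/slow, Erbb3 turned from 1.08 to -0.72 without the slow/slow library numbered 1 and to -0.75 without both libraries numbered 1, with -0.72 to 1.57 over the libraries left out. With DESeq2 size factors Fgfr3 in NPCs gave 0.44 (adjusted p = 0.0508).

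Leaving out 1 library at a time gave 2 to 7 receptors between genotypes in PSA-NCAM+ cells (2 without WT replicate 1, 7 without slow/slow replicate 1), 4 to 5 in NPCs, 6 to 7 in neurons and 3 to 3 in ESCs. It gave 2 to 2, 1 to 4 and 3 to 3 for the interactions in NPCs, PSA-NCAM+ cells and neurons, 2 to 3 and 4 to 6 for NPCs to PSA-NCAM+ cells in WT and slow/slow, and 6 to 7 for WT ESCs to NPCs. Member exons ranged from 0 to 1 in NPCs, 0 to 2 in PSA-NCAM+ cells and 0 to 1 for WT NPCs to PSA-NCAM+ cells. No share of all genes or exons stands beside these ranges, so a change in the rate of all calls cannot be told apart.

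For exons, a 15-point threshold left 0 in PSA-NCAM+ cells and 0 in neurons against NPCs in either genotype. In PSA-NCAM+ cells limma on the logit called 0 (2 of all 24333 exons), or 1 with the replicate block (124 of all exons). Without both libraries numbered 1, 2 were called. At least 10 reads per library gave 1 in NPCs and 3 for slow/slow neurons against NPCs. The share of all exons called is not given for this setting, the 15-point threshold or the fit without those libraries.

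With the replicate block over all stages, 3, 6, 5 and 8 receptors were called between genotypes in ESCs, NPCs, PSA-NCAM+ cells and neurons, the added calls being Egfr in NPCs (-0.98, adjusted p = 0.0313) and neurons (-0.94, adjusted p = 0.0414) and Erbb3 in PSA-NCAM+ cells (-1.32, adjusted p = 0.0228). Over all genes the block called 6909, 9666, 9630 and 8867 at these stages, against 6720, 9423, 9424 and 8626 in the main fit. Same-numbered WT and slow/slow libraries correlated in PSA-NCAM+ cells (mean 0.47), but mean correlations were -0.02, -0.05 and -0.02 in ESCs, NPCs and neurons. The block within the PSA-NCAM+ stage changed no call but those of Egfr and Erbb3. The cause of these changes was not tested. Depth limits Erbb4 outside neurons, and depth or the quality scores limit exons of Egfr, Erbb4, Fgfr3 and Fgfr4.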

Other observations

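The 48-base exon of Erbb4 that distinguishes the CYT-1 form, which carries a docking site for phosphoinositide 3-kinase, was included at 11.4, 36.2 and 17.7% in WT neurons (32 to 73 reads) and at 7.69, 10.5 and 28.6% in slow/slow neurons (9 to 21 reads). The groups overlapped, and most transcripts of both genotypes lacked the exon. No test was made at this depth.

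Values of 2 FGF ligands in PSA-NCAM+ cells complete those given for NPCs. Fgf15 was at 1.22 ± 0.423 CPM for WT libraries and at 115 ± 65.7 CPM for slow/slow libraries (SD, n = 3; log2 change 6.59 ± 0.41 SE, adjusted p = 1.41e-10 by edgeR's quasi-likelihood test). Fgf4 was at 61.6 ± 11.9 and 20.8 ± 1.32 CPM (-1.57 ± 0.11, adjusted p = 5.63e-10). Without both libraries numbered 1, 9 FGF ligands were called higher and 4 lower, against 10 and 4 with them.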
